A study of Arabidopsis thaliana with 12 samples.

Results

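CYN and CBL, genes of nitrogen and sulfur metabolism in Arabidopsis thaliana, are described here. CYN (AT3G23490) encodes cyanase and CBL (AT3G57050) encodes cystathionine beta-lyase. Each had 1 probe carrying its symbol alone in the platform annotation, so the members are 2 of the 692 probes with a single gene symbol and 2 of 3439 probes in all. Both were chosen because they were low in the psan mutant in an earlier analysis of these same values. Their difference between the genotypes is therefore a description and was not tested. Where in the genes the probes lie is not stated in the sources at hand. Both genes lie on chromosome 3, whereas PSAN, the gene affected in the mutant, is AT5G64040.

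Total RNA was measured on 12 expression arrays of ecotype Columbia 0. Of these, 6 were of wild type (WT) and 6 of psan, a mutant lacking PSI-N, a small lumenal subunit of photosystem I. The labels do not name the allele or the number of mutant lines. The labels name no tissue, age, growth condition or treatment for either genotype. No label ties the numbered samples to separate plants, so every p-value below reflects only array-to-array spread, part of which may be technical.

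Cyanase breaks down cyanate with bicarbonate and gives carbon dioxide and ammonia, and so removes a toxic ion that arises from carbamoyl phosphate and urea. Cystathionine beta-lyase is a plastid enzyme that uses pyridoxal phosphate. It cleaves cystathionine, which carries sulfur from cysteine, and yields homocysteine, the direct precursor of methionine. Methionine in turn feeds protein synthesis, S-adenosylmethionine, ethylene and polyamines.

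The deposited intensities are on a linear scale that starts at 0 and reaches the same maximum, 100 after rounding, on each of the 12 arrays. The labels do not say how the authors scaled them. Array means lay between 0.834 and 0.980, while array medians lay between 0.0970 and 0.195 in WT and between 0.229 and 0.271 in psan. WT arrays 1 and 2 stood apart from the other WT arrays, with the lowest medians of all, 0.0995 and 0.0970. Between 161 and 521 probes per array were at exact 0, but neither CYN nor CBL was at 0 on any array. PSAN itself, the check of the genotype labels, averaged 6.30 ± 1.27 (SD, n = 6) over the WT arrays and 0.176 ± 0.0697 (SD, n = 6) over the psan arrays in deposited intensity, with no overlap.

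CYN was bright on every WT array and several-fold dimmer on every psan array. In RNA of whole samples, fewer cells expressing a gene and less of its RNA per cell cannot be told apart. The deposited intensity of CYN on WT arrays 1 to 6 was 2.33, 2.07, 2.05, 2.41, 2.19 and 2.39. On psan arrays 1 to 6 it was 0.446, 0.430, 0.595, 0.587, 0.673 and 0.589. The groups did not overlap, and the lowest WT array was 3.05 times the highest psan array. The WT arrays averaged 2.24 ± 0.159 (SD, n = 6) and the psan arrays 0.553 ± 0.0949 (SD, n = 6), a ratio of means of 4.05. Of the 3376 tested probes, 5.36% had every psan array below every WT array in deposited intensity. Because CYN was chosen on this contrast, nothing is read from that share.

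CBL was lower on most psan arrays than on most WT arrays, with a wide spread in both genotypes. The deposited intensity of CBL on WT arrays 1 to 6 was 0.492, 0.0662, 0.676, 0.407, 0.795 and 0.815. On psan arrays 1 to 6 it was 0.176, 0.127, 0.122, 0.0134, 0.354 and 0.312. WT array 2 lay below 5 of the 6 psan arrays, so the groups overlapped. The other 5 WT arrays, with a lowest value of 0.407, all lay above the highest psan array at 0.354. The WT arrays averaged 0.542 ± 0.284 (SD, n = 6) and the psan arrays 0.184 ± 0.128 (SD, n = 6), a ratio of means of 2.94 and of medians of 3.85. In 31 of the 36 possible pairings of a psan with a WT array the psan array was lower.

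**Figure D1:**
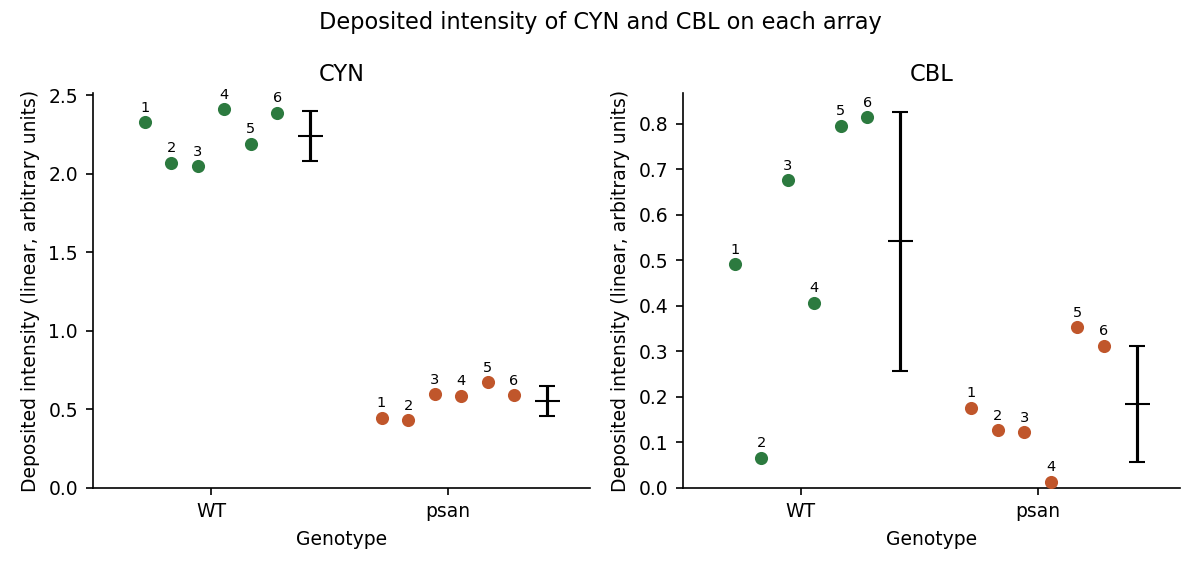
Deposited intensity (linear, arbitrary units, vertical axis from 0) of CYN on the left and CBL on the right, by genotype. Each point is 1 array with its number, and the bar gives the mean ± SD of 6 arrays. For CYN the groups are apart, from 2.05 to 2.41 in WT and from 0.430 to 0.673 in psan, while for CBL WT array 2 at 0.0662 lies among the psan arrays.

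The rank of a probe within its own array does not depend on how arrays were scaled against each other. It orders probe signals, which depend on the probe as well as on the transcript, and so gives no transcript level against that of another gene. Counted from the brightest of 3439 probes, CYN ranked 187, 216, 235, 207, 233 and 212 on WT arrays 1 to 6. On psan arrays 1 to 6 it ranked 1111, 1174, 786, 783, 723 and 834. CYN thus stood within the brightest 6.83% of probes on every WT array and at no better than the brightest 21.0% on any psan array. A rank lower on every psan array than on every WT array was found for 10.5% of the tested probes, and again nothing is read from this for a gene chosen on the contrast.

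CBL ranked 644, 2019, 682, 997, 616 and 576 on WT arrays 1 to 6. On psan arrays 1 to 6 it ranked 2162, 2455, 2316, 2988, 1337 and 1453. Its ranks overlapped between the genotypes through WT array 2 alone, which stood behind psan arrays 5 and 6. The median rank was 663 in WT and 2239 in psan, against 214 and 810 for CYN.

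**Figure D2:**
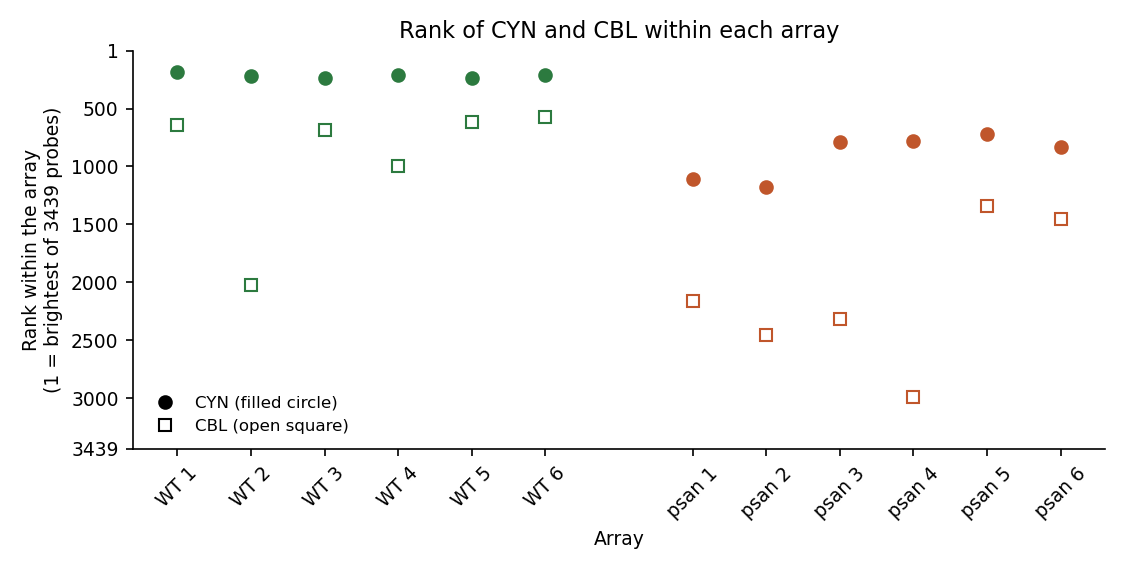
Rank of CYN (filled circles) and CBL (open squares) within each of the 6 WT (green) and 6 psan (orange) arrays, with rank 1, the brightest of 3439 probes, at the top of a linear axis. CYN keeps to ranks 187 to 235 in WT and drops to 723 to 1174 in psan, and CBL on WT array 2, at rank 2019, stands behind psan arrays 5 and 6.

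To put the arrays on a common scale they were quantile normalised, zeros were left out, and log2 values were compared. On this scale CYN averaged 1.20 ± 0.12 (SD, n = 6) over the WT arrays and -1.03 ± 0.35 (SD, n = 6) over the psan arrays. The psan minus WT difference was -2.23 ± 0.19 (SE) in log2 units, which is 4.69-fold lower in psan. CBL averaged -0.97 ± 0.92 (SD, n = 6) over the WT arrays and -3.10 ± 1.27 (SD, n = 6) over the psan arrays. Its difference was -2.13 ± 0.59 (SE) in log2 units, which is 4.38-fold lower. The fold changes were close on this scale, while the standard error of CBL was the larger. Without WT arrays 1 and 2 the log2 fold change was -2.12 for CYN and -2.37 for CBL. Among the 677 tested single-gene probes, 12 (1.77%) had a log2 fold change at least as low as that of CYN, itself included, and 15 (2.22%) at least as low as that of CBL.

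Taken over the 3376 tested probes, the median fold change was -0.015 in normalised log2 units but 0.46 before normalisation, so the zero of the scale depends on the normalisation. As deposited, the log2 fold change was -2.03 for CYN and -1.75 for CBL. When probes were cut by brightness into 10 classes, counted from the dimmest, CYN lay in class 9, where the median log2 fold change as deposited was 0.16. CBL lay in class 7, where that median was 0.45. Both genes were thus below the median of probes as bright as themselves. Their choice as genes low in psan favours this, and nothing is read from it.

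**Figure D3:**
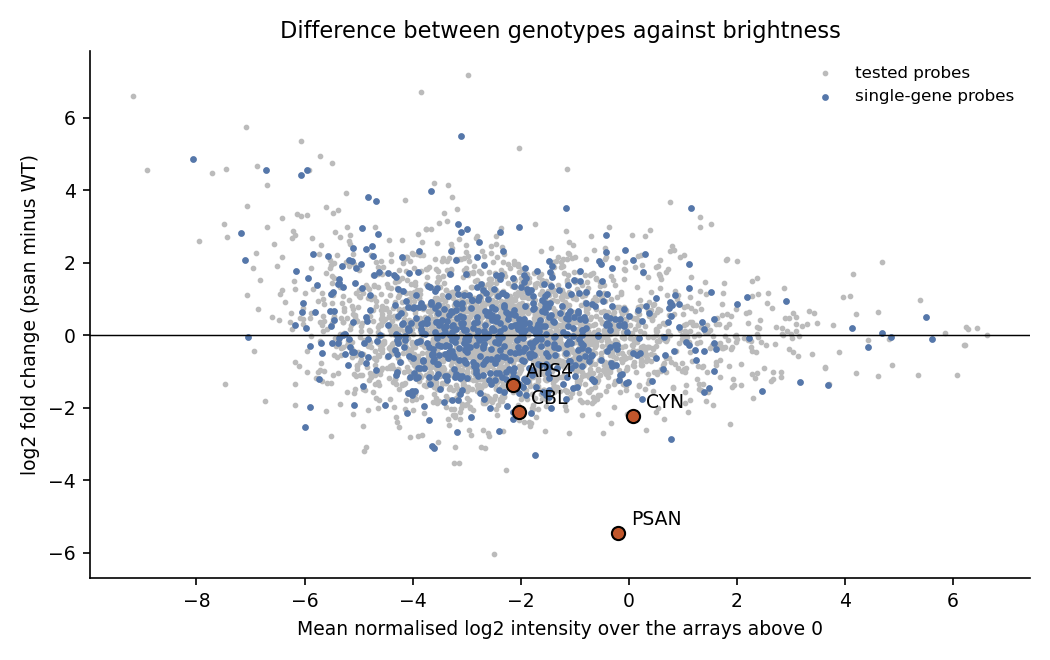
Log2 fold change (psan minus WT) against mean normalised log2 intensity for the 3376 tested probes (grey) and the single-gene probes among them (blue), with CYN, CBL, APS4 and PSAN in orange. CYN at -2.23 and CBL at -2.13 lie at the lower edge of the cloud at different brightness, APS4 at -1.38 lies nearer to its middle and PSAN lies far below.

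The genes differed in how well their arrays of 1 genotype matched. The SD of normalised log2 values within a genotype, pooled over both, was 0.27 for CYN and 1.11 for CBL. Among the 266 other probes whose mean lay within 0.5 log2 units of that of CYN and that were above 0 on all arrays, the median SD was 0.39, and 20.7% had a smaller SD than CYN. That mean was 0.08, whereas CYN was at 1.06 or more on the WT arrays and at -0.68 or less on the psan arrays. The probes are therefore not matched to its level in either genotype. Among the 618 such probes around CBL the median SD was 0.56, and 94.8% had a smaller SD than CBL. The spread of CBL was thus wide for its mean brightness. On psan array 4, however, CBL was near the floor: at 0.0134 it ranked 2988 of 3439 probes, of which 369 were at 0 there. Without that array its log2 fold change was -1.70. How much that 1 value adds to the spread was not tested.

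The members were also read in pairs of arrays 1 and 2, 3 and 4, and 5 and 6 of a genotype. Over 2243 probes, deviations from the genotype's mean correlated within a pair at r = 0.40 to 0.60 for 5 of the 6 pairs, and at r = 0.033 for psan arrays 1 and 2. For CYN, the higher array of a pair exceeded the lower by at most 1.18 times, in WT arrays 3 and 4. Its pair means were 2.20, 2.23 and 2.29 in WT, and in psan 0.438 for arrays 1 and 2, 0.591 for arrays 3 and 4 and 0.631 for arrays 5 and 6. The WT pair means were close together, and psan arrays 1 and 2 were the lowest of the mutant.

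For CBL, 2 pairs held very unequal values. WT array 1 was 7.43 times WT array 2, and psan array 3 was 9.06 times psan array 4. In the other 4 pairs the higher array was 1.02 to 1.66 times the lower. The CBL pair means were 0.279, 0.541 and 0.805 in WT and 0.152, 0.0676 and 0.333 in psan. CBL was low on only 1 of the WT arrays with low medians, array 2. In deposited intensity the lowest WT pair, arrays 1 and 2, therefore lay below the highest psan pair, arrays 5 and 6. After normalisation the order of these pairs was the reverse, with mean log2 values of -1.62 in WT and -1.86 in psan.

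Probes also differed between genotypes by their number in the table, in a pattern that repeats along the numbers and was read in 24 bins of 12 numbers. The period was chosen on these data by the earlier analysis, and no label says what the number stands for. CYN was in the bin with the second lowest median of the 24, where the 134 other probes had a median log2 fold change of -0.70, and 3 of them were lower than CYN. With the probe number corrected in each array, the log2 fold change of CYN was -1.55 in place of -2.23. CBL was in the ninth lowest bin, where the 141 other probes had a median of -0.17, and 3 of them were lower than CBL. Its log2 fold change was -2.03 with the correction in place of -2.13. The fold change of CYN thus moved with this correction by more than its within-genotype SD, and that of CBL by less.

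**Figure D4:**
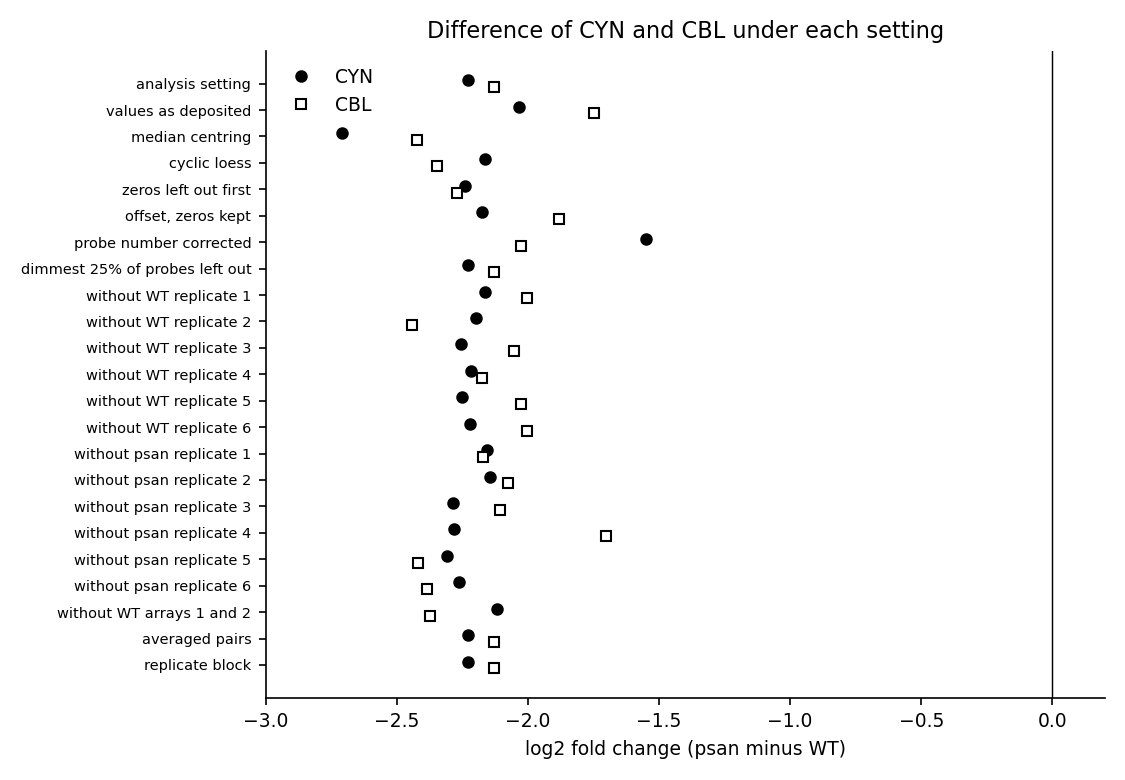
Log2 fold change (psan minus WT, linear horizontal axis) of CYN (filled circles) and CBL (open squares) in the analysis setting and under 22 alternatives, 1 per line, with a vertical line at 0. All values are below 0, from -2.71 with median centring to -1.55 with the probe number corrected for CYN, and from -2.44 without WT array 2 to -1.70 without psan array 4 for CBL. With averaged pairs, a replicate block or the dimmest probes left out, the value cannot differ from that of the analysis setting.

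The likeness of other genes to CYN and CBL was measured over the 12 arrays among 428 single-gene probes above 0 on all arrays. It was the root-mean-square difference of normalised log2 values after each probe's own mean was taken off, so that 0 would be an identical course. These genes share the arrays with the members, and a low value describes these arrays only. Nearest to CYN was AT1G15140, at 0.28 log2 units. AT2G39000 followed at 0.31, AT3G21810 at 0.35, AT1G04420 at 0.40 and AT4G16610 at 0.45. The deposited intensity of AT1G15140 averaged 0.686 ± 0.181 (SD, n = 6) on WT and 0.233 ± 0.0649 (SD, n = 6) on psan arrays. That of AT2G39000 averaged 0.235 ± 0.0770 (SD, n = 6) on WT and 0.0774 ± 0.0208 (SD, n = 6) on psan arrays. All 5 genes were high in WT and low in psan, with log2 fold changes from -2.25 to -1.70, as closeness to CYN requires. Of the 5, 3 lay in the 6 lowest of the 24 probe number bins. With the probe number corrected, the 5 log2 fold changes ran from -2.24 for AT3G21810 to -0.92 for AT4G16610.

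No gene came as near to CBL, whose wide spread by itself enlarges this measure. The nearest was LPA19 (AT1G05385), a Psb27-type factor of photosystem II assembly, at 0.68 log2 units. It was followed by AT4G30680 at 0.73, AT2G37510 at 0.75, AT2G46910 at 0.80 and AT4G26370 at 0.82. The deposited intensity of LPA19 averaged 0.796 ± 0.308 (SD, n = 6) on WT and 0.322 ± 0.154 (SD, n = 6) on psan arrays. These genes, picked over the same arrays, were also low on psan array 4, as closeness to CBL favours. Against the mean of the other psan arrays, CBL stood there at -2.62 log2 units and the 5 genes at -2.08 to -1.17, while the median over 2243 probes was 0.027. On WT array 2, against the mean of the other WT arrays, CBL stood at -2.11 and the 5 genes at -0.76 to -0.20, with a median over all probes of 0.069. The 5 genes, which were picked for likeness to CBL, were thus lower on both arrays, by less than CBL. Of these 5 too, 3 lay in the 6 lowest of the 24 probe number bins. Their log2 fold changes were -1.77 to -1.17, and -1.77 to -0.69 with the probe number corrected.

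CYN and CBL were not close to each other in this measure. Their difference was 1.02 log2 units, which placed CBL 119th in order of nearness to CYN and CYN 28th in order of nearness to CBL. With each genotype's mean taken off, the difference was also 1.02. The wide spread of CBL, with a pooled SD of 1.11, alone puts any steadier gene far from it in this measure. Nothing further is read from the difference or from the 2 orders. On the quantile-normalised scale, the fold changes of these genes, both chosen for being low, were thus close while their arrays within a genotype varied differently. The fold changes were farther apart as a ratio of deposited means, 4.05 against 2.94, and with the probe number corrected, -1.55 against -2.03 on the log2 scale.

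**Figure D5:**
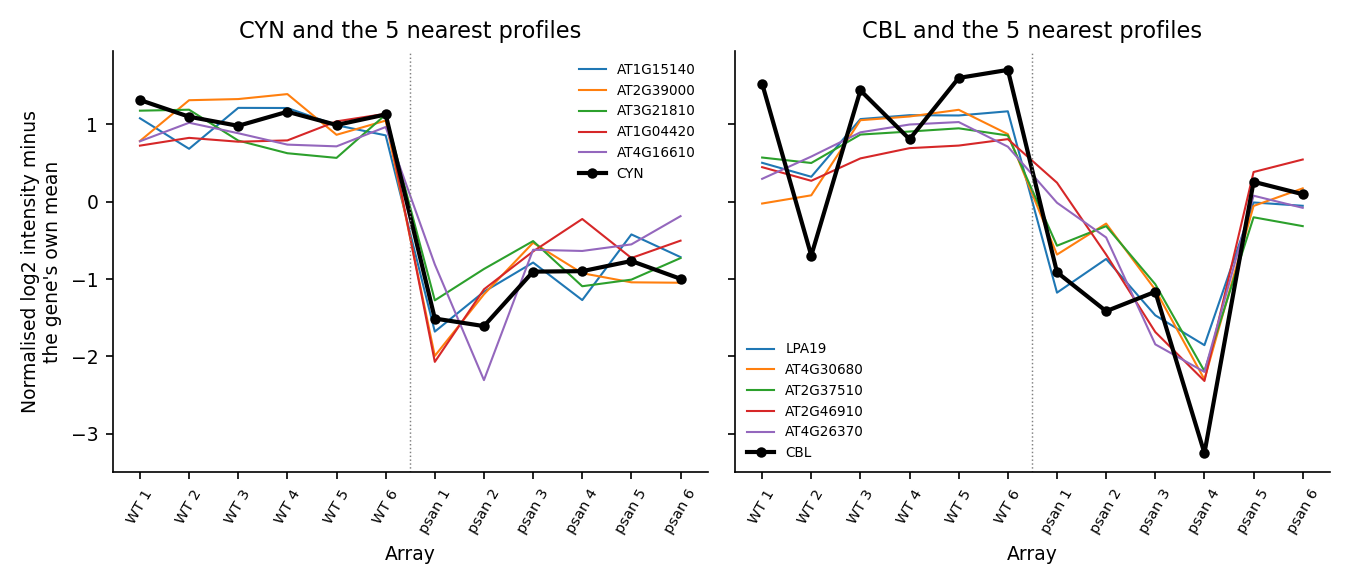
Normalised log2 intensity minus the gene's own mean on the 12 arrays, for CYN (left, black) and CBL (right, black) with the 5 nearest single-gene probes of each in colour and a dotted line between WT and psan. The courses around CYN lie close together, with the nearest at 0.28 log2 units, while CBL drops on WT array 2 and psan array 4 by more than its neighbours, to -2.11 and -2.62 log2 units against the other arrays of the genotype.

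Few genes around these enzymes could be read. Lists were drawn up for the steps before, beside and after them, covering methionine, S-adenosylmethionine and aspartate-family synthesis, sulfate assimilation with cysteine and glutathione synthesis, cyanate, cyanide, bicarbonate and ammonia handling, and pyridoxal phosphate supply. Without the members they held 81 genes, of which 1 had a single-gene probe. That gene was APS4 (AT5G43780), an ATP sulfurylase, the enzyme that activates sulfate at the start of sulfur assimilation. The other enzymes of these pathways, among them cystathionine gamma-synthase, methionine synthases and carbonic anhydrases, were not analysed here. Nor was any of the 9 fixed markers of root, seed and green tissue, so the tissue could not be checked.

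APS4 fell in psan after normalisation. Its deposited intensity on WT arrays 1 to 6 was 0.134, 0.190, 0.404, 0.359, 0.435 and 0.413. On psan arrays 1 to 6 it was 0.169, 0.125, 0.117, 0.237, 0.245 and 0.196. In these deposited values WT arrays 1 and 2 lay within the range of the psan arrays and the other 4 WT arrays lay above it. In normalised log2 units the groups did not overlap, with the lowest WT array at -1.99 and the highest psan array at -2.24. The log2 fold change was -1.38 ± 0.26 (SE), or 2.60-fold lower, with a limma adjusted p of 0.00185 over all probes. In the same fit 29.9% of the 3376 probes passed, 15.6% as lower in psan and 14.3% as higher, so a single list gene that passed says little about the list. The call was lost without normalisation (-0.76, adjusted p = 0.114), with the probe number corrected (-0.66, adjusted p = 0.112) or with averaged pairs (-1.38, adjusted p = 0.0767). It held without WT arrays 1 and 2 (-1.50, adjusted p = 0.00238). APS4 was in the bin of probe numbers with the lowest median, at -0.75 over 144 other probes.

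Of the 4 nearest chromosome loci with single-gene probes, 2 passed the test, both as higher in psan, where 14.3% of tested probes did so. With so few genes nothing is read from that count. On either side of CYN the closest loci with a single-gene probe were AT3G22690, with 116 annotated genes between, and AT3G23940, with 62 between. AT3G23940 rose. Deposited, it averaged 0.141 ± 0.0477 (SD, n = 6) on WT and 0.797 ± 0.0948 (SD, n = 6) on psan arrays. The log2 fold change was 2.06 ± 0.23 (SE) with a limma adjusted p of 7.47e-05. AT3G22690 had a log2 fold change of 0.16 and did not pass (adjusted p = 0.798).

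On either side of CBL the closest such loci were AT3G56810, with 35 genes between, and AT3G57120, with 11 between. AT3G57120 rose. Deposited, it averaged 0.710 ± 0.293 (SD, n = 6) on WT and 1.29 ± 0.226 (SD, n = 6) on psan arrays. The log2 fold change was 0.73 ± 0.22 (SE) and passed in limma (adjusted p = 0.0272). This call was lost with median centring (0.27, adjusted p = 0.421), the probe number corrected (0.35, adjusted p = 0.341), averaged pairs (0.73, adjusted p = 0.246), pairs as random blocks (0.73, adjusted p = 0.0897) and WT arrays 1 and 2 both left out (0.66, adjusted p = 0.0646). Without any 1 of WT arrays 1, 3 and 4 or psan arrays 2 and 6 its adjusted p lay just above the threshold, at up to 0.0601. AT3G56810 had a log2 fold change of 1.11 and did not pass (adjusted p = 0.257), but passed on the values as deposited (1.74, adjusted p = 0.0442).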

How the data were processed

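Values of 6 WT and 6 psan arrays were used, grouped and numbered by the sample titles. The authors deposited intensities on a linear scale for 3439 probes, and neither the array type nor their scaling is stated in the labels. By the platform annotation 692 probes had a single gene symbol, 870 had several and 1877 had none. For 690 of the 692, names and gene order came from the RefSeq table of assembly TAIR10.1.

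Quantile normalisation was applied across arrays, zeros were set aside, and the log2 data entered a linear model in limma 3.58.1 under R 4.3.3 (lmFit, eBayes, two-sided). Probes needed a value above 0 on 1 or more arrays of each genotype, which left 3376. P-values were adjusted by Benjamini-Hochberg over these, with a threshold of 0.05. The members, the gene lists and the period of the probe number were chosen with earlier results of these data known. Named genes were the members, list genes with a probe, the 5 nearest profiles, the nearest loci with single-gene probes on either side, and PSAN. Whether same-numbered arrays were paired is not stated in the labels, and their deviations correlated from -0.155 to 0.228. For arrays, their number limits the precision. Figures were drawn with matplotlib 3.10.9.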

Additional observations from a re-analysis of the deposited data

Results flagged for a closer look

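In 36 groups of arrays, each 1 gene in 1 genotype, 3 held a single array far from the others, where chance gives about 1.8. On WT array 2, CBL had a normalised log2 intensity of -2.73, while the remaining WT arrays ran from -1.23 to -0.33, which left a gap equal to 0.627 of the range. On WT array 3, AT3G56810, a neighbour of CBL on the chromosome, had -5.92, while the rest ran from -3.59 to -2.74 (gap 0.732). On psan array 2, AT4G16610, among the genes nearest to CYN, had -3.78, while the rest ran from -2.28 to -1.66 (gap 0.706).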

How the results depend on the processing

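CYN and CBL, chosen for being low in psan, stayed lower there under all 22 alternatives run for them. Averaged pairs, the array number as a block and leaving out the dimmest probes could not change either fold change. These settings are therefore no check on the fold changes of the members. The log2 fold change of CYN moved beyond its within-genotype SD to -2.71 with median centring and to -1.55 with the probe number corrected, and was -2.31 to -2.15 with each array left out. That of CBL moved by less than its SD throughout, but this SD was 1.11 against 0.27 for CYN. With each array left out it was -2.44 to -1.70, a wider range than for CYN. The count of 1010 probes past the threshold was 145 with averaged pairs, all among the 1010, 553 with pairs as random blocks and 586 at an adjusted p under 0.01. It was 891 to 980 with each array left out. As deposited, 753 probes were higher and 254 lower, and with median centring 340 were higher and 677 lower, against 484 and 526. The count of list genes, 1, was 0 as deposited, with the probe number corrected and with averaged pairs, and 1 with each array left out. The array number as a replicate block gave 894 probes and kept the APS4 call (adjusted p = 0.00690). It cannot change the fold changes of -2.23 and -2.13, because CYN and CBL had a value on every array of both genotypes. Same-numbered arrays correlated below 0.1 for 4 of 6 numbers, and at 0.228 for number 5 and 0.217 for number 6. Whether they were paired cannot be told from this. AT3G22690 turned sign with cyclic loess (-0.0023), zeros left out first (-0.021), the probe number corrected (-0.16) and ran from -0.042 to 0.36 with each array left out. For APS4, PSAN and the 4 neighbours, 129 values left the call as it was, 14 lost it and 1 gained it. The 10 genes nearest to the members gave 208 values within their SD and 11 beyond it, none of the other sign. Averaging leaves fewer samples, whereas pairs as random blocks kept all 12 arrays, at an estimated within-pair correlation of 0.567. The cause of each change was not tested.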
